A study of Mus musculus with 6 samples.

Results

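Antibodies are built from heavy chains paired with kappa or lambda light chains, and the part of each chain that contacts antigen is encoded by a variable (V) segment that a B cell joins to D and J or to J segments by recombination. Each B cell clone therefore transcribes essentially 1 heavy and 1 light V segment at a high level, and plasma cells, the antibody-secreting descendants of B cells, carry by far the most of this RNA. Kidney epithelium does not rearrange these loci. V segment RNA in whole kidney is for that reason read as RNA of B lineage cells, and its spread over segments as a coarse view of how many clones contribute.

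V segments were taken as every row of the gene table whose symbol begins with Ighv, Igkv or Iglv. There were 222 such rows of 40993 in all. The 114 heavy rows lie on chromosome 12 (113574242 to 116000461), the 105 kappa rows on chromosome 6 (67555636 to 70704177) and the 3 lambda rows on chromosome 16 (19085017 to 19260844), in the coordinates of the table (mm10). In GENCODE M21, 203 of their gene identifiers are annotated as V genes and 8 as V pseudogenes, and 11 were not matched. The rows fall into 38 families by name, 16 heavy, 19 kappa and 3 lambda, and span 90 to 7626 bp with a median of 442 bp.

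RNA from whole kidneys of C57BL/6 mice, 2 months old, was sequenced in 6 libraries, 3 from the standard diet and 3 from the adenine-enriched diet. Adenine feeding is a widely used way to injure the kidney tubules through crystals of an adenine metabolite. The labels give no transgene or further agent in either group, and the sources used here do not give the duration or dose of the diet. A library is named by its diet and replicate number, as in standard 1 and adenine 1. The labels do not say that samples came from separate animals, so p-values measure only the spread between these samples. In bulk tissue, more cells of a type and more RNA per cell cannot be told apart.

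The unit of every level is FPKM, in which fragment numbers are scaled by library depth and by length of the transcript. Depth estimated from the steps of low values was 17.3 to 23.5 M fragments. Among 43 heavy rows of nearly equal length, the lowest value above 0.1 FPKM was 0.373 to 0.812 in the 6 libraries, so values near 1 FPKM are close to the lowest that were listed. One library of each diet stood apart: adenine 1 held the highest value of 133 of the 165 V segments tested (80.6%), against 48.8% of all 15431 genes tested, and standard 1 held the highest standard diet value of 119 of the 165. Results are therefore given with and without these 2 libraries. The kidney list (Umod, Lrp2, Slc34a1, Aqp2, Nphs1 and Slc12a3) summed to 3455 to 4569 FPKM, most of it Umod. Of its 6 genes Nphs1 rose and the proximal tubule genes Slc34a1 and Lrp2 fell (limma adjusted p = 0.0124, 0.0287 and 0.0497), with 0 to 2 calls down when 1 library was left out. The fat list summed to 84.5 to 187 FPKM, nearly all of it Fabp4 (79.3 to 183 FPKM), which endothelium also expresses, while Adipoq was at most 4.10 FPKM. The part of these tissue genes in the V segment differences was not tested. Cxcl13, a chemokine of lymphoid follicles, was 13.3 FPKM in adenine 1 and at most 0.91 elsewhere.

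Many V segments are near-copies of one another, which limits what a read can say. Among the 203 members with a coding sequence, the median identity to the closest other V segment was 94.6%, and 95 of them had a copy at least 95% identical. A stretch of 100 bases, the read length, was shared exactly with another segment by 82 of the 203, and the other 121 shared none. The pairs printed here set a segment whose level rose on the adenine-enriched diet beside its closest relative. Each line is the last 150 bases of the germline coding sequence, 5′ to 3′, from the GENCODE M21 transcripts (GRCm38), and capitals mark the bases at which the pair differs.

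Ighv5-16 (chr12:113838526-113838983) and Ighv5-12 (chr12:113702124-113702578), both on the minus strand, are heavy segments that were both called. They differ at 23 of the printed bases and are 86.0% identical over their coding alignment of 356 positions, so that reads seldom fit both.
Ighv5-16: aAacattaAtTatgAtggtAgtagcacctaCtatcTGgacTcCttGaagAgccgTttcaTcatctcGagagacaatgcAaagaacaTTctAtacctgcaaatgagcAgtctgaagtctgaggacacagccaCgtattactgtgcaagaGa
Ighv5-12: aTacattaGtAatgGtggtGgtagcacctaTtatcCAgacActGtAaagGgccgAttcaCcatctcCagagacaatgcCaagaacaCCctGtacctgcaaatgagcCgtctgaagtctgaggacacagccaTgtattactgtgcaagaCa

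Ighv1-55 (chr12:115208095-115208527) and Ighv1-53 (chr12:115158403-115158835), also on the minus strand, belong to the large Ighv1 family, and Ighv1-55 was called while Ighv1-53 was not. They differ at 8 printed bases and are 95.5% identical, with a long identical run in the middle of the stretch shown.
Ighv1-55: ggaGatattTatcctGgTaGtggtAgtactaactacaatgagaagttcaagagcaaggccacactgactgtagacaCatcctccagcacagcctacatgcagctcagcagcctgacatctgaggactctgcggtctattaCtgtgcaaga
Ighv1-53: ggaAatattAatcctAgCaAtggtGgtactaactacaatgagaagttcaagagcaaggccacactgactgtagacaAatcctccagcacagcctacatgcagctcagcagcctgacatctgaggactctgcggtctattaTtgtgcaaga

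Igkv4-61 (chr6:69416895-69417178) was the leading kappa segment of adenine 2 and adenine 3 over all rows, and Igkv4-54 (chr6:69631646-69631933) is its nearest relative. Both lie on the minus strand, differ at 4 printed bases and are 96.9% identical.
Igkv4-61: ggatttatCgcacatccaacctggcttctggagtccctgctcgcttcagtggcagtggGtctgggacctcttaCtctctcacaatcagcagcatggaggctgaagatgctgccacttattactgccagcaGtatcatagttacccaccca
Igkv4-54: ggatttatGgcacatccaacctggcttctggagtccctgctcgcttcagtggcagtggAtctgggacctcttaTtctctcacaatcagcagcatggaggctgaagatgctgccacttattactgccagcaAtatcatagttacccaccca

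Igkv10-96 (chr6:68631963-68632430) and Igkv10-94 (chr6:68704508-68704978), on the minus strand, are 95.4% identical, and 14 of their 16 coding differences fall in the printed stretch.
Igkv10-96: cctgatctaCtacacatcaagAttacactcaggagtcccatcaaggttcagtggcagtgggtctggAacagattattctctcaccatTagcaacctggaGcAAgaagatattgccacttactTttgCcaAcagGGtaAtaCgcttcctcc
Igkv10-94: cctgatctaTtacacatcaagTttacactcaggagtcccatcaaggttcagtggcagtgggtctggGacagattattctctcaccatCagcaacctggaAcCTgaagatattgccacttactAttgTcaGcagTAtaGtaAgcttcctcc

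Iglv1 (chr16:19085017-19085460) and Iglv2 (chr16:19260401-19260844), on the minus strand, are the abundant lambda segment and its near-copy, with 5 printed differences and 96.9% identity.
Iglv1: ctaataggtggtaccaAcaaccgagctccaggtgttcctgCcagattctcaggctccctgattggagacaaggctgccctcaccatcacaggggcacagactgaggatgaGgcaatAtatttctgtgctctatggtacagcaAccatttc
Iglv2: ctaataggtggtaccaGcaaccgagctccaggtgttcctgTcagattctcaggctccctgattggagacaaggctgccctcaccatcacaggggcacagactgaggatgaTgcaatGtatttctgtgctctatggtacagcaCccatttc

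The first question was how much V segment RNA the kidneys held on each diet. Summed heavy chain V segments came to 907, 197 and 82.2 FPKM in standard 1 to 3, and to 32434, 1066 and 1333 FPKM in adenine 1 to 3. Of the adenine 1 sum, 17930 FPKM came from 1 short row, Ighv1-2 (chromosome 12, 114469105 to 114469227), which was listed at 0 in the other 5 libraries, is shorter than a nominal 200 bp fragment and has no entry in GENCODE M21. Without rows under 200 bp the adenine 1 sum was 14504 FPKM. All 3 adenine libraries lay above all 3 standard libraries either way, but adenine 2 exceeded standard 1 only narrowly, and the groups overlapped once rows under 300 bp were left out or the libraries were rescaled by the median of ratios. The median adenine library was 6.77 times the median standard library.

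Summed kappa V segments were 1228, 354 and 139 FPKM in standard 1 to 3 and 13005, 774 and 1310 FPKM in adenine 1 to 3. Here the groups overlapped, because adenine 2 lay below standard 1, and the ratio of medians was 3.70. Lambda V segments, a minor light chain class in the mouse, summed to 57.0, 14.4 and 2.5 FPKM on the standard diet and to 305, 114 and 187 FPKM on the adenine-enriched diet. For lambda the groups stayed apart in each of these treatments of the data, with a ratio of medians of 13. As mean log2 sums over all rows, adenine minus standard was 3.87 for heavy, 2.59 for kappa and 3.88 for lambda. The heavy value counts the short row Ighv1-2 in adenine 1 and is lower without it. Without both replicates 1 these differences were 3.23, 2.18 and 4.61, and adenine 2 and 3 lay above standard 2 and 3 in all 3 chains. These sums are descriptions over chosen members and carry no test.

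**Figure D1:**
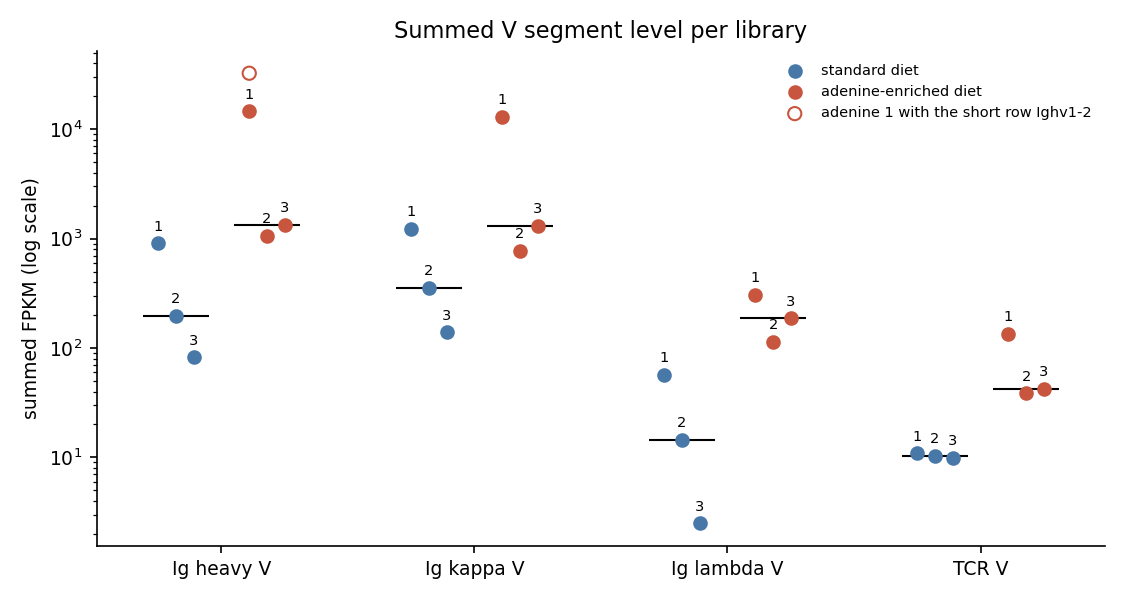
Summed FPKM of heavy, kappa and lambda V segments and of T cell receptor V segments in each library, on a log axis. Each point is 1 library with its replicate number, bars are group medians, filled heavy chain points leave out rows under 200 bp, and the open circle is adenine 1 with the short row Ighv1-2. Kappa overlaps between diets (adenine 2 at 774 and standard 1 at 1228 FPKM), whereas lambda does not.

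The number of segments detected was counted at 1 FPKM or more. For the heavy chain it was 55, 35 and 23 of 114 rows in standard 1 to 3 and 81, 53 and 60 in adenine 1 to 3. For kappa it was 60, 50 and 31 of 105 rows on the standard diet and 80, 52 and 55 on the adenine-enriched diet. Both chains overlapped between diets, since standard 1 detected more segments than adenine 2. Counting any value above 0, the adenine libraries lay above the standard ones in both chains, with 92, 65 and 66 against 62, 41 and 41 heavy segments, and 88, 70 and 68 against 67, 57 and 42 kappa segments. Detection followed the sums: within the standard diet the library with the higher sum detected more segments at 1 FPKM in both chains, and how far the difference between diets rests on the level was not tested. Across all 6 libraries 31 of the 222 rows were at 0 throughout, and 47 were above 0 in at least 1 adenine library and at 0 in all 3 standard libraries. Some of the 47, such as Igkv9-123 and Igkv10-95, were above 0 in adenine 1 alone, and others, such as Igkv1-88, in all 3 adenine libraries. Igkv4-71 and Igkv4-78 were above 0 only on the standard diet, and no count in that direction or over all genes is given here. Estimated depth was highest in adenine 1 and 2 (22.8 and 23.5 M fragments), and its part in these counts was not tested.

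Evenness describes how equally the RNA of a chain is spread over its segments. It was measured as the Shannon entropy of the FPKM shares divided by its maximum for the segments present (Pielou evenness, at most 1), and as the exponential of that entropy, the number of equally used segments that would give the same spread. Heavy chain evenness was 0.791, 0.862 and 0.894 in standard 1 to 3 and 0.504, 0.739 and 0.848 in adenine 1 to 3, and leaving out rows under 200 bp brought adenine 1 to 0.790. Kappa evenness was 0.758, 0.870 and 0.864 on the standard diet and 0.795, 0.766 and 0.833 on the adenine-enriched diet. Neither chain separated the diets.

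The effective number of heavy segments, without rows under 200 bp, was 26.2, 24.6 and 27.7 in standard 1 to 3 and 35.3, 21.9 and 34.9 in adenine 1 to 3. With Ighv1-2 counted, adenine 1 fell to 9.79 by this measure, and the group means changed order, from 26.2 ± 1.54 on standard against 30.7 ± 7.62 on adenine (SD, n = 3) to 26.2 ± 1.54 against 22.2 ± 12.5. For kappa it was 24.2, 33.7 and 25.2 against 35.1, 25.9 and 33.5. So 14504 FPKM of heavy chain RNA in adenine 1 was spread over about as many segments as 1333 FPKM in adenine 3. The count of segments that each made up at least 1% of the heavy chain was likewise close, at 24 ± 3.61 on standard and 24.7 ± 3.21 on adenine without rows under 200 bp, or 21.3 ± 5.51 on adenine with them (SD, n = 3). For lambda, evenness ranged from 0.363 to 1.00 on standard and from 0.0700 to 0.629 on adenine, over only 3 segments.

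**Figure D2:**
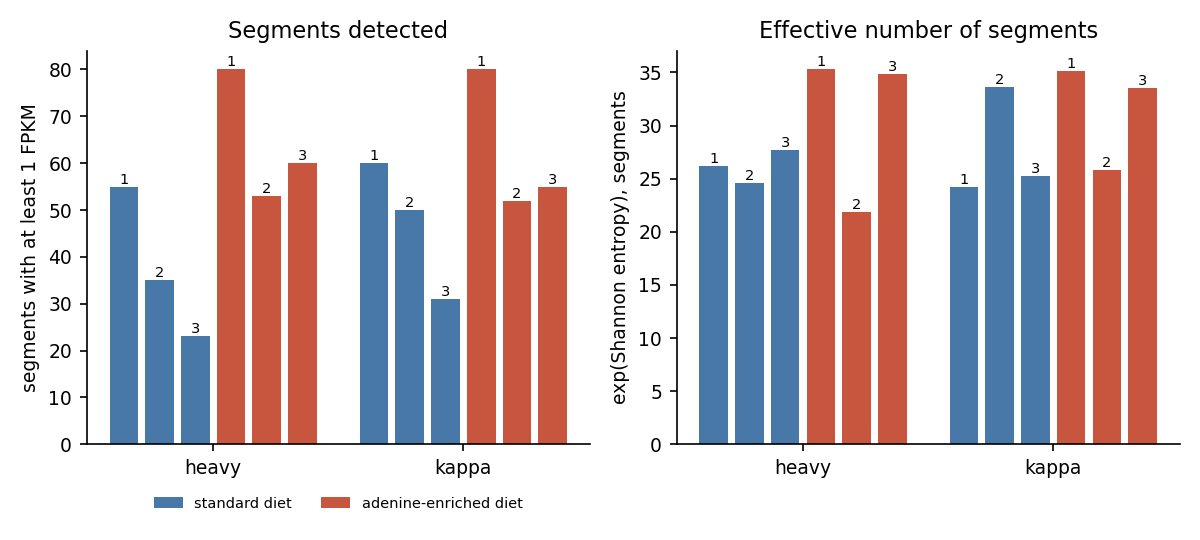
Left, the number of V segments at 1 FPKM or more. Right, the effective number of segments from the Shannon entropy of FPKM shares. Each bar is 1 library with its replicate number, and rows under 200 bp are left out. Adenine 1 detected 80 segments in each chain, and the effective numbers of the diets overlap in both chains.

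Which segments led differed from library to library. In the heavy chain Ighv1-53 led standard 1 with 16.8% of the sum, Ighv1-18 led standard 2 with 12.0% and Ighv1-39 led standard 3 with 8.48%. On the adenine-enriched diet Ighv1-18 led adenine 1 with 8.28% when Ighv1-2 was set aside, Ighv1-12 led adenine 2 with 24.2% and Ighv1-26 led adenine 3 with 10.3%. In kappa, Igkv4-55 led standard 1 with 20.5%, Igkv9-120 led standard 2 with 8.57%, Igkv4-53 led standard 3 with 19.2% and Igkv5-39 led adenine 1 with 8.36%. Igkv4-61 led both adenine 2, with 19.1%, and adenine 3, with 10.6%. Ighv1-12, Igkv4-53, Igkv5-39 and Igkv4-61 are rows under 300 bp. With such rows left out, Ighv1-53 led adenine 2 in the heavy chain with 14.2%. In kappa, Igkv12-46 then led standard 3 (7.46%) and adenine 1 (9.16%), and Igkv10-96 led adenine 2 (13.6%) and adenine 3 (12.0%). The other leaders stayed the same. No segment of either chain was among the 10 most abundant in all 6 libraries. Ighv1-26, Ighv1-53 and Ighv3-6 were among the 10 in all 3 standard libraries and Ighv1-55 in all 3 adenine libraries, and in kappa Igkv4-55 was shared by the standard libraries and no segment by the adenine libraries.

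The overlap of segment use between 2 libraries, taken as the summed smaller share of each segment, was 45.1 to 50.5% within the standard diet, 43.4 to 48.7% within the adenine-enriched diet and 34.3 to 55.2% between diets for the heavy chain. For kappa it was 33.7 to 42.6%, 37.9 to 52.3% and 33.8 to 52.0%. Libraries of 1 diet thus shared about as much use with each other as with the other diet. Standard 1 and adenine 1 shared 55.2% of heavy and 52.0% of kappa use, the highest heavy value and close to the highest kappa value, which was 52.3% between adenine 2 and adenine 3.

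Single segments were then compared between diets with limma on log2(FPKM + 1), in a fit over every gene whose mean reached 0.5 FPKM. Of the 222 V segments 165 were tested (80 heavy, 82 kappa and 3 lambda), and the other 57 were too low. At an adjusted p under 0.05, 26 rose on the adenine-enriched diet (14 heavy, 11 kappa and 1 lambda), which is 15.8% of those tested, against 29.7% of all genes tested. None fell, against 6.84% of all genes, and none had an unadjusted p under 0.05 in that direction, whereas 44 did upward. Segments at 0 in all 3 standard libraries passed the filter only through their adenine values and could only rise. In this fit, which used no pairing, the share called was thus below the background. The median log2 difference was nonetheless 2.15 for the V segments and 0.25 for all genes tested. A log2 difference of 1 or more was seen for 135 of the 165, against 11.6% of all genes, and 40 of the 165 (24.2%) had all adenine libraries above all standard libraries, against 44.4% of all genes. By chain the median log2 difference was 2.29 for heavy, 1.71 for kappa and 2.93 for lambda. With adenine 1 left out, the median was 1.13 for the V segments and 0.20 for all genes. Then 20 of 143 V segments tested rose, 14.0% against 19.5% of all genes. With both replicates 1 left out, the medians were 1.61 and 0.21.

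The number of calls changed with the libraries and the model used. With the replicate number as a block 58 V segments rose (31 heavy, 25 kappa and 2 lambda, 35.2% against 31.3% of all genes), all 26 among them. Without standard 2 the count was 15, and without standard 3 it was 12 (16.6% and 15.3% of all genes were then called up). Without both replicates 1, 29 of 134 tested rose (21.6%, against 10.6% of all genes), 19 of them among the 26. Median-of-ratios scaling lowered the median log2 difference of all genes from 0.25 to -0.02 and that of the V segments from 2.15 to 1.93, and 23 V segments, 13.9%, were then called up against 16.4% of all genes.

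**Figure D3:**
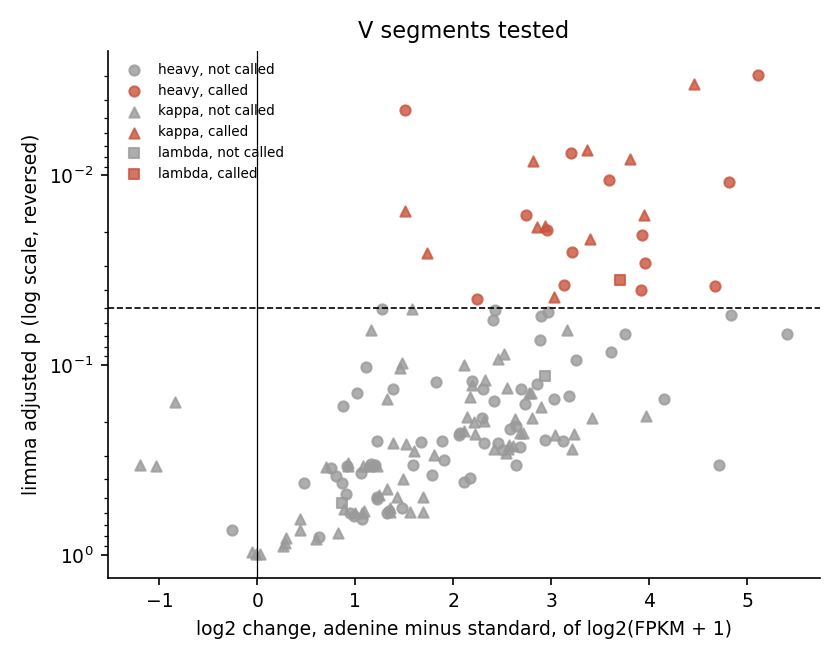
Log2 difference (adenine minus standard, of log2(FPKM + 1)) against the limma adjusted p on a reversed log axis for the 165 V segments tested, with the dashed line at 0.05. Of these, 159 lie right of 0, and the 26 above the line all rose. Segments at 0 in all standard libraries could only lie right of 0.

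A set of 10 segments was called in the fit over all 6 libraries and in every one of 14 other fits (8 other settings and 6 omissions of a library) that tested them: Ighv1-42, Ighv1-75, Ighv1-85, Ighv5-16, Ighv13-2, Igkv1-88, Igkv10-96, Igkv15-103, Igkv4-61 and Igkv6-17. Ighv13-2 was tested in 13 of the 14. Of these 10, Ighv1-42, Ighv1-85, Ighv13-2, Ighv5-16, Igkv1-88 and Igkv15-103 shared no 100-base stretch with another V segment. That is 60%, near the 58.6% of the segments tested and not called. How many of all genes were called in every fit is not given here.

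Among the heavy segments called, Ighv5-16 was 0.466, 0.572 and 1.18 FPKM in standard 1 to 3 and 70.1, 82.8 and 33.9 FPKM in adenine 1 to 3. Adenine 1 did not stand apart for it, and no standard library came near any adenine library. Its mean went from 0.740 ± 0.387 to 62.3 ± 25.4 FPKM (SD, n = 3), a log2 difference of 5.11 ± 0.34 (SE, limma adjusted p = 0.00295). Ighv6-3 was 9.18, 3.19 and 0 FPKM on the standard diet and 20.6, 32.2 and 46.3 FPKM on the adenine-enriched diet (limma adjusted p = 0.0253), and here adenine 1 was the lowest of its group. Without standard 2, adenine 2 or adenine 3 the Ighv6-3 call was lost, at adjusted p of 0.0504 to 0.0744. Ighv1-75 was 1.77, 0.520 and 2.14 FPKM against 73.5, 24.7 and 11.2 FPKM (limma adjusted p = 0.0106). For Ighv1-75 the groups were also well apart, with adenine 1 the highest.

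The other named heavy segments that rose had their highest level in adenine 1. Ighv1-42 was 2.76, 1.11 and 0 FPKM in standard 1 to 3 and 201, 18.8 and 43.2 FPKM in adenine 1 to 3 (log2 difference 4.81 ± 0.88 SE, limma adjusted p = 0.0109). Ighv1-55 was 17.6, 1.64 and 1.14 FPKM against 875, 40.9 and 46.3 FPKM (limma adjusted p = 0.0384). The Ighv1-55 call was lost without standard 2, standard 3, adenine 1 or adenine 2, at adjusted p of 0.0516 to 0.115. Ighv9-3 was 5.41, 2.97 and 0.507 FPKM against 292, 10.8 and 37.2 FPKM (limma adjusted p = 0.0404), a call lost without standard 1, 2 or 3 or adenine 3. Ighv5-17 was 7.31, 1.19 and 0 FPKM against 113, 10.2 and 51.9 FPKM, and Ighv5-4 reached 75.7, 5.65 and 5.85 FPKM on adenine from 0 in each standard library (limma adjusted p = 0.0289 and 0.0206). Without standard 2 or standard 3 both of these calls were lost, as was that of Ighv5-17 without adenine 1 or 3 and that of Ighv5-4 without standard 1, at adjusted p of 0.0548 to 0.0862. In both the adenine libraries lay above every standard library, for Ighv5-17 by a narrow margin in adenine 2. Ighv5-4, at 0 on the standard diet, passed the filter only through its adenine values.

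The Ighv5 family, a group of 9 rows near the J end of the heavy chain locus, supplied 4 of the 14 heavy calls from 8 tested (29.7% of all genes were called up): Ighv5-4, Ighv5-12, Ighv5-16 and Ighv5-17. Its summed level was 15.2, 8.84 and 1.75 FPKM in standard 1 to 3 and 419, 103 and 203 FPKM in adenine 1 to 3. As a share of heavy V RNA without rows under 200 bp it was 1.68, 4.49 and 2.13% on the standard diet and 2.89, 9.68 and 15.2% on the adenine-enriched diet, so that adenine 1 lay within the standard range and adenine 2 and 3 above it. The Ighv1 family, with 52 of 110 such rows, held 79.6, 69.8 and 67.4% on standard and 79.2, 76.0 and 61.9% on adenine, with 5 of its 43 tested segments called. Members of Ighv14, Ighv2, Ighv3 and Ighv8 were tested without a call.

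Among the kappa segments, Igkv4-61 was 14.1, 17.2 and 9.33 FPKM in standard 1 to 3 and 46.4, 147 and 139 FPKM in adenine 1 to 3. Adenine 1 was the lowest of the adenine libraries and still above every standard library. Its mean went from 13.5 ± 3.96 to 110.9 ± 56.0 FPKM (SD, n = 3), with a log2 difference of 2.81 ± 0.46 (SE, limma adjusted p = 0.00836). Its near-copy Igkv4-54 was listed at 3.33 FPKM in adenine 1 and at 0 in the other 5 libraries. Of the 100-base stretches of Igkv4-61, 20.9% were shared exactly with another V segment, against 0.791% of those of Igkv4-54. Few of the shared stretches of Igkv4-61 can thus be with Igkv4-54. Reads from the shared stretches could have been assigned to other segments.

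Igkv10-96 was 17.5, 4.92 and 1.93 FPKM on the standard diet and 86.9, 81.7 and 118 FPKM on the adenine-enriched diet (log2 difference 3.80 ± 0.62 SE, limma adjusted p = 0.00822). The adenine libraries were close together, whereas its relative Igkv10-94 was 4.62, 30.1 and 0.643 FPKM against 688, 5.53 and 0.647 FPKM and was not called (limma adjusted p = 0.598). Igkv15-103, the single member of its family, was 4.37, 3.45 and 5.94 FPKM against 90.0, 81.5 and 23.1 FPKM (limma adjusted p = 0.00735). Igkv1-88 was at 0 throughout the standard diet, and adenine 1 to 3 had 40.2, 20.2 and 11.1 FPKM of it (limma adjusted p = 0.00332). Both have no 100-base stretch in common with another segment, and their groups did not overlap. Igkv1-88 passed the filter only through its adenine values, so it could only rise.

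Igkv6-17 was 2.00, 0 and 3.12 FPKM on standard and 15.3, 8.40 and 35.5 FPKM on adenine (limma adjusted p = 0.0186). Igkv1-135 was 12.6, 1.5 and 2.06 FPKM against 108, 20.0 and 52.0 FPKM (limma adjusted p = 0.0217), a call lost without standard 2, standard 3 or adenine 1. Igkv8-19 had 0 FPKM throughout the standard diet and 64.8, 4.60 and 8.97 FPKM on adenine (limma adjusted p = 0.0162), and each omission of a standard library ended its call. It passed the filter only through its adenine values. Igkv8-27 was 5.73, 7.92 and 0 FPKM against 67.7, 13.7 and 31.5 FPKM (limma adjusted p = 0.0436), called in only 3 of the 14 other fits and lost with any 1 library left out.

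Lambda segments were few enough to be given in full. Iglv1 was 51.0, 13.2 and 1.26 FPKM in standard 1 to 3 and 225, 113 and 143 FPKM in adenine 1 to 3 (log2 difference 3.71 ± 1.05 SE, limma adjusted p = 0.0355). Every adenine library exceeded every standard library, but the call was lost without standard 2 or any 1 adenine library, at adjusted p of 0.0583 to 0.0885. Iglv2 was 1.52, 1.20 and 1.25 FPKM against 66.8, 0.835 and 43.6 FPKM (limma adjusted p = 0.114), and Iglv3 was 4.53, 0 and 0 FPKM against 12.9, 0.621 and 0.474 FPKM (limma adjusted p = 0.531). Without adenine 2 Iglv2 was called (adjusted p = 0.0029), and with the replicate block Iglv3 was called (adjusted p = 0.0325). Adenine 2 held Iglv1 almost alone, with 98.7% of its lambda V RNA, whereas Iglv2 made up 21.9% in adenine 1 and 23.3% in adenine 3.

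**Figure D4:**
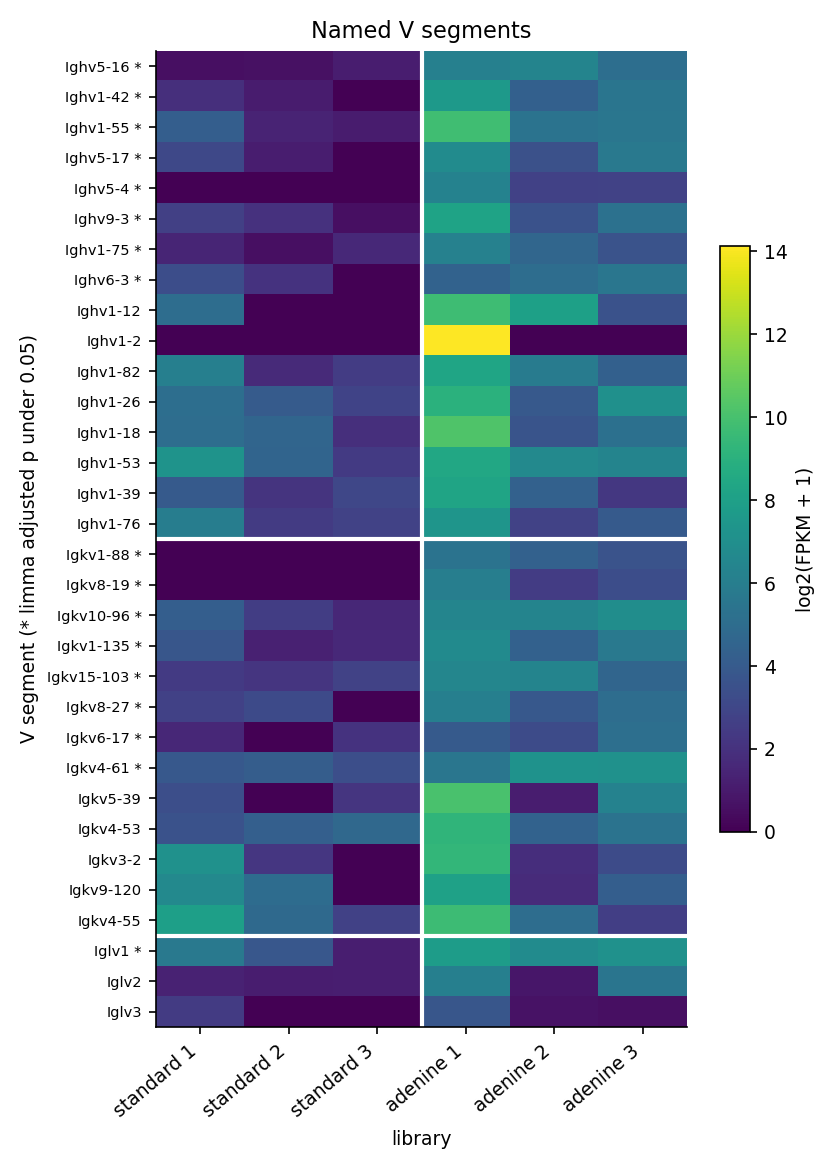
Level of the named V segments as log2(FPKM + 1) in each library, heavy, kappa and lambda from top to bottom and standard libraries left of the white line. An asterisk marks an adjusted p under 0.05. Ighv5-16 and Igkv10-96 are high in all 3 adenine libraries, whereas Igkv5-39 and Igkv3-2 are high chiefly in adenine 1.

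The most abundant segments on the standard diet were not called. Ighv1-53 was 152, 22.2 and 4.37 FPKM in standard 1 to 3 and 356, 98.3 and 81.5 FPKM in adenine 1 to 3 (limma adjusted p = 0.154). Igkv4-55 was 251, 27.9 and 5.54 FPKM against 827, 32.0 and 5.04 FPKM (limma adjusted p = 0.825). Igkv3-2 was 141, 3.64 and 0 FPKM against 654, 2.66 and 8.33 FPKM, and Igkv9-120 was 99.8, 30.3 and 0 FPKM against 275, 2.37 and 17.8 FPKM (limma adjusted p = 0.595 and 0.771). In all of these replicate 1 was the highest library of each diet. Ighv1-82 (68.1, 2.24 and 4.74 against 319, 57.7 and 19.3 FPKM) and Ighv1-76 (63.3, 4.53 and 6.00 against 163, 5.85 and 15 FPKM) likewise had replicate 1 highest in each diet, with limma adjusted p of 0.160 and 0.599. The replicate block called Ighv1-53, Ighv1-76 and Ighv1-82 up (adjusted p = 0.0276, 0.0331 and 0.0175), and Ighv1-53 was also called without standard 1 (adjusted p = 0.0431).

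Several segments that led a library were also not called, unlike Igkv4-61 and Iglv1. Ighv1-12 was 32.2, 0 and 0 FPKM in standard 1 to 3 and 849, 258 and 10.6 FPKM in adenine 1 to 3 (limma adjusted p = 0.0686), and it was called without standard 1 or adenine 3 and with the replicate block (adjusted p = 0.0478, 0.0196 and 0.0152). Ighv1-18 was 32.3, 23.7 and 2.78 against 1201, 11.8 and 36.1 FPKM, and Ighv1-26 was 32.9, 15.8 and 6.08 against 519, 14.3 and 137 FPKM (limma adjusted p = 0.279 and 0.133). Ighv1-39 was 15.3, 3.40 and 6.98 against 299.98, 19.7 and 3.85 FPKM (limma adjusted p = 0.317). In kappa, Igkv5-39 was 9.34, 0 and 3.51 against 1087, 1.17 and 75.5 FPKM, and Igkv4-53 was 10.8, 18.4 and 26.7 against 600.3, 21 and 40.5 FPKM (limma adjusted p = 0.185 and 0.187). The diets overlapped in each of these segments. Of them, Ighv1-26 and Igkv5-39 were called without adenine 2 (adjusted p = 0.0356 and 0.0415), and Igkv5-39 also with the replicate block (adjusted p = 0.0435).

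Only 6 of the 165 segments tested had a lower mean log2 level on the adenine-enriched diet: Igkv4-71, Igkv4-69, Igkv6-13, Igkv16-104, Ighv2-4 and 1 of the 2 rows named Igkv19-93. Igkv4-69 was 8.50, 3.88 and 3.37 FPKM on standard and 3.78, 0.924 and 2.81 FPKM on adenine (limma adjusted p = 0.157). Adenine 1 lay within its standard range, and it was called down after quantile normalization (adjusted p = 0.0451) and with the replicate block and median-of-ratios scaling together (adjusted p = 0.0317). The 2 Igkv19-93 rows, of 468 and 282 bp, are nested in the same place, and where one carried the signal the other was near 0, so their levels are uncertain.

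V segments are spliced to constant genes, and the ratio of the 2 kinds of RNA varied less between libraries than their levels. Kappa V sums per Igkc, the kappa constant gene, were 1.56, 1.89 and 1.59 in standard 1 to 3 and 1.28, 1.40 and 1.19 in adenine 1 to 3, and heavy V sums (without rows under 200 bp) per summed heavy constant gene were 3.18, 2.80 and 2.5 against 3.49, 3.35 and 2.90. With Ighv1-2 counted the adenine 1 heavy ratio was 7.8. The heavy ratios of the diets overlapped, whereas the kappa ratio was lower in every adenine library than in every standard library. Of the 9 constant and J chain genes tested 1 rose, against 29.7% of all genes, and the replicate block called 5 and the omission of adenine 2 called 2. The 1 was Igha, the constant gene of IgA, at 53.0, 21.5 and 25.2 FPKM on the standard diet and 643, 290 and 417 FPKM on the adenine-enriched diet (log2 difference 3.75, limma adjusted p = 0.00418). Ighm, the constant gene of IgM, was 145, 40.3 and 4.85 against 2432, 19.9 and 27.1 FPKM (limma adjusted p = 0.502), high in adenine 1 and within the standard range in adenine 2 and 3. J chain, which joins IgA dimers and IgM pentamers and is listed here as Igj, was 54.5, 13.4 and 7.90 against 435.9, 52.2 and 81.1 FPKM (limma adjusted p = 0.0653).

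The isotype and light chain make-up separated adenine 1 from the other adenine libraries. Igha made up 18.6, 30.5 and 76.5% of heavy constant RNA in standard 1 to 3, and 15.4, 91.0 and 90.7% in adenine 1 to 3. Ighm made up 50.8, 57.2 and 14.7% on standard and 58.5, 6.25 and 5.89% on adenine. Lambda segments made up 4.44, 3.92 and 1.77% of light chain V RNA on the standard diet and 2.29, 12.9 and 12.5% on the adenine-enriched diet. Adenine 2 and 3 were therefore alike in being mostly IgA, with over 12% lambda and a larger Ighv5 share, whereas adenine 1 lay inside or below the standard range for IgA and lambda. The 55 of 110 heavy rows nearest the J segments gave 29.3, 23.1 and 30% of heavy V RNA in standard 1 to 3 and 35.0, 55.4 and 34.0% in adenine 1 to 3. The last of these 55 rows is Ighv1-12, the leading heavy segment of adenine 2 unless rows under 300 bp are left out.

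**Figure D5:**
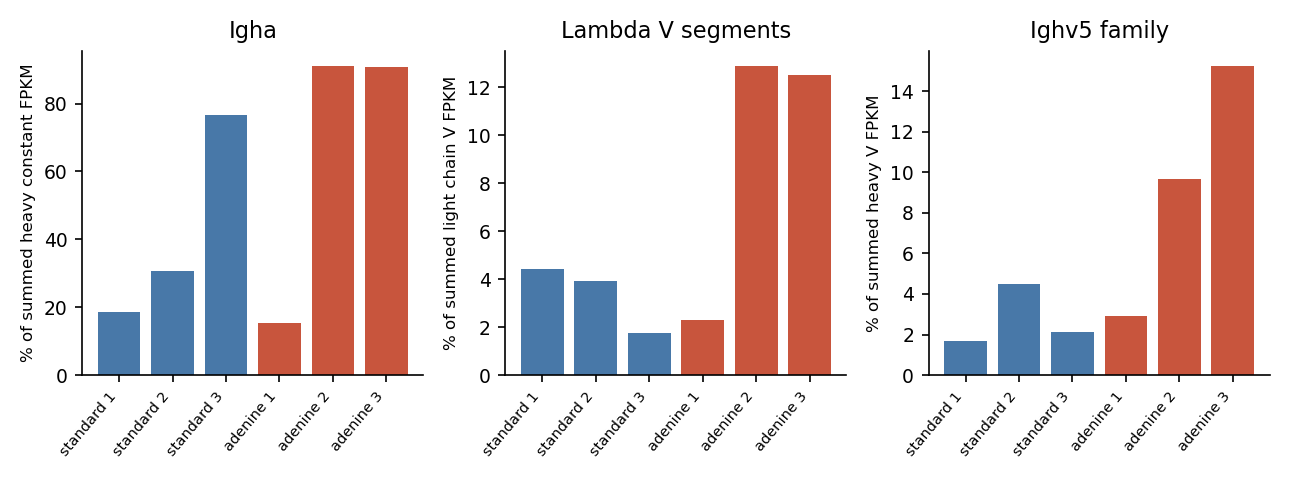
Share of Igha in heavy constant FPKM, of lambda segments in light chain V FPKM and of the Ighv5 family in heavy V FPKM (without rows under 200 bp), 1 bar per library, blue for the standard and red for the adenine-enriched diet. Adenine 2 and 3 lie at 91.0 and 90.7%, 12.9 and 12.5%, and 9.68 and 15.2%, and adenine 1 within or below the standard range in all 3 panels.

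Markers of the cells that carry V segment RNA were read in the same way. None of the 7 B cell genes tested by limma rose (1 had an unadjusted p under 0.05), and the 10 listed B cell genes summed to 6.25, 3.31 and 1.23 FPKM in standard 1 to 3 and 75.7, 7.48 and 6.14 FPKM in adenine 1 to 3. Ms4a1, which encodes CD20 and is lost or low in plasma cells, was 10.4 FPKM in adenine 1 and at most 0.502 elsewhere. The 10 plasma cell genes summed to 205, 157 and 174 FPKM on standard and 801, 355 and 315 FPKM on adenine, and 3 of 9 tested rose, a share near the 29.7% of all genes: Sdc1, Xbp1 and Txndc5, all of which kidney epithelium can also express. Without standard 1 or adenine 2 the count was 1, and without adenine 3 it was 5. Mzb1, a chaperone of antibody assembly, was 3.26, 1.07 and 0.538 against 36.5, 1.16 and 2.77 FPKM. The part of B cell and plasma cell number in the V segment differences was not tested.

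Genes of the machinery that makes and moves antibodies were read next. Rag1, Rag2 and Dntt, which act in V segment recombination in bone marrow, were at most 0.0523 FPKM in any library. From the list of 8 recombination and diversification genes, 2 of 4 tested rose, the repair genes Ung and Dclre1c (0 to 3 with 1 library left out), where 29.7% of all genes rose. Among the octamer factors that drive V segment promoters and their coactivator, 1 of 3 genes tested rose, a share near the 29.7% of all genes. This was Pou2f2, which went from 0.209 ± 0.0487 to 2.06 ± 1.05 FPKM (SD, n = 3, limma adjusted p = 0.0124). Pou2f1 was 4.49 FPKM in adenine 1 and at most 0.472 elsewhere (limma adjusted p = 0.359). Pou2af1 was 18.4 FPKM in adenine 1 and at most 0.933 elsewhere (limma adjusted p = 0.234). Of the 3 genes that transport antibody or bind it in kidney, Fcamr, a receptor for IgA and IgM, fell from 8.75 ± 0.691 to 2.74 ± 1.22 FPKM (SD, n = 3, limma adjusted p = 0.0109). Pigr, which carries IgA across epithelium, was 78.6, 102 and 108 against 54.5, 86.5 and 86.9 FPKM (limma adjusted p = 0.226). With the replicate block 2 of these 3 genes were called down, and with median-of-ratios scaling added all 3. In the fit without a block 6.84% of all genes were called down. Of all 15431 genes, 1132 were called down with the block and 2701 with the scaling added.

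Other immune cells differed in how evenly they separated the diets. T cell receptor V segments, 138 rows built on the same plan, summed to 10.9, 10.3 and 9.96 FPKM in standard 1 to 3 and to 135, 38.7 and 42.3 FPKM in adenine 1 to 3. At 1 FPKM or more, 6, 3 and 4 of them were detected on the standard diet and 33, 12 and 13 on the adenine-enriched diet, without overlap. Of 21 tested 10 rose, against 29.7% of all genes, with a median log2 difference of 1.16. The highest and the lowest standard library thus differed 1.09-fold in T cell receptor segments and 11.03-fold in heavy chain segments. The T cell receptor sum rests mostly on rows under 1 FPKM in number. The 10 T cell genes listed ranged more widely, summing to 11.7, 7.39 and 10.7 FPKM in standard 1 to 3. Immunoglobulin V RNA per T cell receptor V RNA, leaving out rows under 200 bp, was 201, 54.7 and 22.5 in standard 1 to 3 and 206, 50.5 and 67.0 in adenine 1 to 3, so that relative to T cell receptor RNA the diets overlapped. Among the other lists 7 of 10 T cell genes and all 4 macrophage genes tested rose, where 29.7% of all genes did. So did 2 of 3 germinal centre genes (S1pr2 and Gcsam) and 1 of 3 lymphoid stroma genes (Ccl21a). Of the 5 blood genes 0 were called in either direction (none had an unadjusted limma p under 0.05). The blood genes summed to 37.9, 8.97 and 69.2 FPKM in standard 1 to 3 and 141, 36.5 and 24.2 FPKM in adenine 1 to 3. With single libraries left out the T cell count was 1 to 10, the germinal centre count 1 to 2 and the lymphoid stroma count 1 to 2, and the macrophage count stayed at 4.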

How the data were processed

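Total RNA of whole kidneys was made into libraries with a TruSeq kit and random hexamers and read as 100 bp pairs, per the labels' protocols. The deposited table holds FPKM per gene, which the authors computed, and TopHat and Cufflinks 2.1.1 and the builds mm10 and GRCm38 are named in the submitters' processing notes, without settings. The sources used here do not say how reads that fit several V segments were assigned. The table of the aging comparison in the same series was not used here.

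From the FPKM, limma 3.58.1 (R 4.3.3; moderated test with a variance trend, two-sided, Benjamini-Hochberg) was fitted on log2(FPKM + 1) for the 15431 genes whose mean reached 0.5 FPKM, threshold 0.05. A log2 difference on this scale understates the change of low genes. The script was tested on simulated data. Sums, numbers detected (1 FPKM or more) and evenness are descriptions, since 3 against 3 samples cannot give a two-sided exact permutation p below 0.10. The depth estimate came from steps between low FPKM values of transcripts of at least 2000 bp with a nominal 200 bp fragment, where 65.4 to 74.1% of values lay within 0.15 of a whole fragment, so it is approximate. Every value after ± is an SD over 3 samples unless SE is written.

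Same-numbered samples deviated together from their diet means (r = 0.257, 0.143 and 0.181 across genes, against -0.187 to 0.0376 for other pairs), so the numbers may pair the samples. This rests on the data, as no label states a pairing. The fit behind every adjusted p printed without a setting used no pairing, and the replicate block was run as an alternative.

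Named were, by chain, up to 8 called segments with the highest adenine level, the leading segment of each library, the 3 most abundant on the standard diet and all lambda segments. Igkv10-94, Igkv4-54, Ighv5-12 and the segments below 0 were added after their values were seen. Members and lists were chosen with earlier results of these data known. Coding sequences were taken from GENCODE M21 by gene identifier, and identity came from global alignment. A further 3 rows outside the naming rule, such as Gm16710, carry V gene identifiers and were left out. Alternatives were the pseudocount, filter, scaling, variance trend, replicate block, row length, detection limit and the omission of each library; leaving out rows under 200 bp, or both replicates 1, was chosen after seeing the data. Some listed genes are not reported here.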

Additional observations from a re-analysis of the deposited data

How the results depend on the processing

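With the replicate block, which treats the numbers as pairs, 58 V segments were called up (31 heavy, 25 kappa, 2 lambda), 35.2% against 31.3% of all genes. With the block and median-of-ratios scaling 50 were called up (27, 21 and 2). That is 30.3% of those tested, against 2575 of all 15431 genes. Without a filter 9 heavy and 0 lambda segments were called, where 4154 of all 22768 genes rose. Leaving out 1 library at a time gave 12 to 34 calls up in all, 6 to 20 heavy, 5 to 15 kappa and 0 to 1 lambda. The lowest count, without standard 3, was 7.1% of those tested, against 15.3% of all genes. The highest, without adenine 2, was 20.2%, against 1888 of all 15369 genes. Quantile normalization, and the block with median-of-ratios scaling, each called 1 segment down, the kappa segment Igkv4-69. The other 6 settings over the full set of libraries moved the count of 26 by less than 1.5 times. Counted at 1% of the chain or more, the heavy detection difference turned to -2.67 from 27. That value includes the short row Ighv1-2 in the adenine 1 total, and without rows under 200 bp the counts were 24 and 24.7. Kappa evenness over families was 0.0313 higher on adenine, against -0.0327 over segments. Lambda segments detected differed by 0.667 above 0 FPKM and by 1.33 at 5 FPKM, against -0.333 at 1 FPKM. The effective number of heavy segments differed by -3.98 over all rows, by 4.52 without rows under 200 bp and by 4.39 without rows under 300 bp. Without adenine 1 it differed by 2.21, and in each of these cases the diets overlapped. Without adenine 3 it differed by -10.3 over all rows. There adenine 1 with Ighv1-2 counted (9.79) and adenine 2 (21.9) both lay below every standard library. The log2 sums kept their sign in every alternative run. Among the cell lists, leaving out 1 library gave 1 to 5 plasma cell, 0 to 1 B cell and 0 to 3 recombination calls. At a mean of at least 5 FPKM the octamer list lost its 1 call, since Pou2f2, with diet means of 0.209 and 2.06 FPKM, was not tested. The causes of the other shifts were not tested. Values near 1 FPKM are close to the lowest listed, so a segment absent from a library was not detectable at this depth rather than shown to be unused.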

Other observations

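A row outside the naming rule, Gm16710, carries the gene identifier of a heavy V gene and was 42.8, 2.18 and 0 FPKM in standard 1 to 3 and 106.2, 17.1 and 18.7 FPKM in adenine 1 to 3. The 105 kappa rows lie on both strands of chromosome 6. The 40 on the plus strand gave 34.4, 28.1 and 31.1% of kappa V RNA on the standard diet and 28.3, 31.8 and 29% on the adenine-enriched diet, while the kappa sum ranged from 139 to 13005 FPKM. Ccl19, a chemokine of the lymphoid T cell zone, was 4.96, 3.56 and 4.38 FPKM on the standard diet and 33.6, 8.08 and 9.21 FPKM on the adenine-enriched diet, again with its highest value in adenine 1.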
